A study of Drosophila melanogaster with 18 samples.

Results

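The 252 peaks described here are stretches of RNA captured by an antibody against N4-acetylcytidine (ac4C) that the authors listed as differential in both of their comparisons with control. They are the peaks of the deposited table that compares NAT10 RNAi with control which overlap, by at least 1 bp on the same chromosome and strand, a peak of the deposited table that compares the combined knockdown of NAT10 and Xrp1 with control. They make up 18.9% of the 1336 peaks of the first table and overlap 241 of the 1316 peaks of the second (18.3%). The 252 peaks occupy 246 distinct intervals and 229 separate stretches once overlapping peaks are merged, and lie in 223 host genes. In 213 of them the interval was the same in both tables, and the control reads were then identical in both. The smallest overlap, 31 bp, belonged to the peak in Past1, and the nearest peak outside the rule, in stan, lay 28 bp from a peak of the second table. The peaks were thus selected on the reads of IP and input against control in both comparisons, which share the same control libraries, and values against control are given as a description, without a test.

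ac4C is a cytidine that carries an acetyl group on its base. It is written by the acetyltransferase NAT10, whose gene in the fly is l(1)G0020, and is best known in ribosomal RNA and transfer RNA. In messenger RNA it is mapped, as here, by fragmenting the RNA, pulling down fragments with an antibody and comparing the captured reads (IP) with the reads of the starting RNA (input). A ratio of IP to input can therefore be low because few fragments were captured, or because the input itself covers the place well. Xrp1 is a transcription factor of the bZIP family that is induced by ribosomal and other stress in the fly.

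The RNA came from whole third-instar larvae of Drosophila melanogaster. All 3 genotypes carried the ubiquitous driver da-GAL4 with the temperature-sensitive repressor tub-GAL80ts (Dats-GAL4). The control was Dats-GAL4/+, the next genotype was Dats-GAL4 with UAS-NAT10-RNAi, and the last was Dats-GAL4 with UAS-NAT10-RNAi and Xrp1-RNAi, called below the larvae with both constructs. Egg laying lasted 24 h at 18 °C, and larvae were moved to 30 °C later. Control larvae were harvested at 72 h and those labelled NAT10 RNAi at 120 h, so age goes with genotype and the contribution of each cannot be told apart. For larvae with both constructs the labels state no harvest time. Each sample pooled 40 larvae, of whose RNA 10% of the fragments (about 100 nt) served as input, and each genotype had 3 replicates, for 18 libraries in all.

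The targeted NAT10 transcript did not drop under RNAi. Control input libraries held 5.13, 4.97 and 5.46 FPKM, the larvae labelled NAT10 RNAi held 5.22, 5.93 and 5.76, and those with both constructs held 6.18, 6.04 and 6.02. The genotypes are therefore called by their labels throughout. Xrp1 averaged 211 FPKM in control, 385 in the larvae labelled NAT10 RNAi and 41.7 with both constructs. Neither gene hosts any of the 252 peaks. Input libraries held 15518179 to 24272099 reads in genes. The total depth of the IP libraries is not known from the tables, which give reads within listed peaks, so IP reads and ratios are raw and a common shift between libraries cannot be told apart from a change of all peaks. Of 24 tissue markers in the FPKM table, 23 reached 1 FPKM in every genotype, the exception being the germline gene vas. Some moved strongly with genotype, such as the salivary glue gene Sgs3 (6481 FPKM in control, 285 in the larvae labelled NAT10 RNAi and 295 with both constructs) and the muscle myosin Mhc (116, 474 and 404). Their part in the peak values was not tested, and in whole larvae fewer cells of a type and less RNA per cell cannot be told apart.

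All 252 peaks differed from control in the same direction in both RNAi genotypes. Both differences use the same control libraries and both contrasts chose the peaks, so this agreement is not independent evidence. Under other settings 1 peak was opposite with 5 reads added, 2 were after division by library medians, and 1 was without replicate 2 of the genotype with both constructs. The ratio of IP to input, as log2 of reads plus 1, was lower than in control in both for 224 peaks in 197 host genes, and higher in both for 28 peaks in 26 host genes. Counted as 1 peak per merged stretch the classes held 203 and 26. The 3 replicates did not overlap with control in 225 of the 252 peaks for the larvae labelled NAT10 RNAi, beside 82.3% of all peaks of the first table, and in 172 of 252 for the larvae with both constructs, beside 72.1% of all peaks of the second. Since those contrasts chose the peaks, nothing is read from these shares. The median log2 ratio of the 224 lower peaks was 2.97 in control, 1.27 in the larvae labelled NAT10 RNAi and 1.46 with both constructs. That of the 28 higher peaks was 1.21, 2.38 and 2.81, or 1.30 in control over the intervals of the second table. Outside these peaks, 73.1% of the other 1084 peaks of the first table had a lower ratio than control, and 46.0% of the other 1075 of the second.

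In the 224 lower peaks the reads that differed most from control were those of the input, not those of the IP. Among the 204 of them with 1 interval in both tables, the median peak held 26.2 IP reads per library in control, 25.5 in the larvae labelled NAT10 RNAi and 22.5 with both constructs. The same peaks held a median of 2.67 input reads in control, 10.5 in the larvae labelled NAT10 RNAi and 7.83 with both constructs. Over all 224 peaks the median log2 difference from control was -0.11 for IP and 1.61 for input in the larvae labelled NAT10 RNAi, and -0.33 for IP and 1.18 for input with both constructs. Input moved further than IP in 207 of 224 peaks in the former and in 195 of 224 in the latter. IP reads stayed within 1.5-fold of control in 155 and 152 of the 224 peaks. The other 792 peaks with a lower ratio in the first table showed a like pattern of reads, with a median log2 difference of -0.18 for IP and 1.44 for input.

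**Figure D1:**
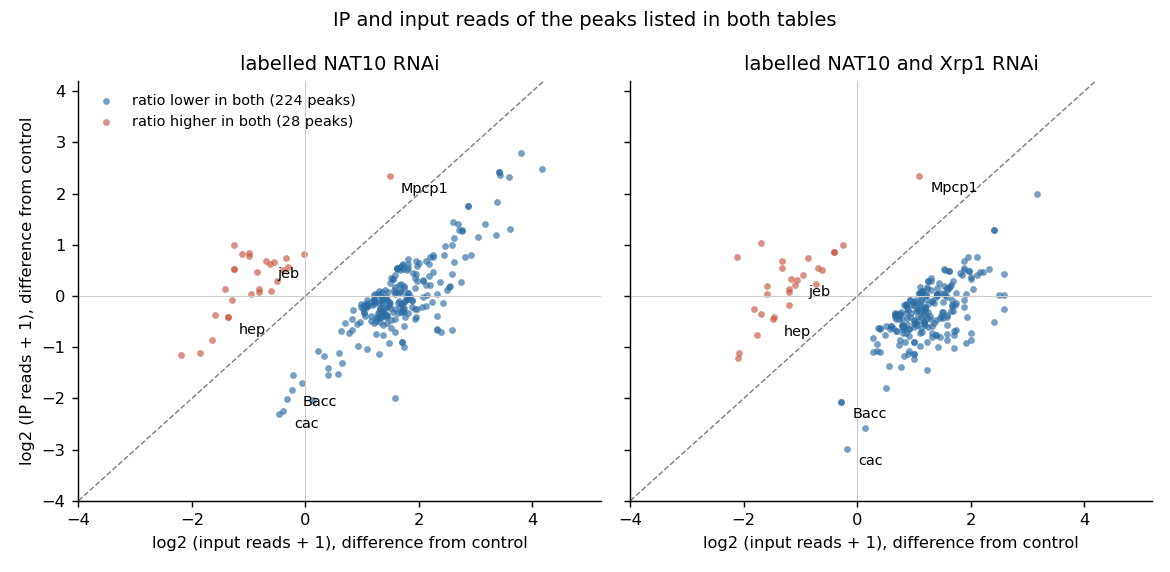
Difference from control in input reads (x axis, log2) and in IP reads (y axis, log2) for each of the 252 peaks, in the larvae labelled NAT10 RNAi (left) and with both constructs (right); points below the dashed line of equality have a lower ratio than control. Most of the 224 lower peaks spread to the right of 0 along the x axis and near 0 on the y axis, and Bacc and cac stand at the bottom.

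The control values of input rest on few reads. Mean control input was under 10 reads per library in 197 of the 224 lower peaks (87.9%), and was 0 in all 3 control libraries in 16 of them. In the larvae labelled NAT10 RNAi 91 of the 224 peaks were under 10 input reads, and with both constructs 127. With such counts the read added to both sides moves the ratio. Only 28 of the 252 peaks had a mean of at least 10 input reads in every genotype, of which 22 were lower and 6 were higher than control. Of the lower peaks that the first table lists beside these, 83.3% had under 10 control input reads.

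The medians by library set control apart from both RNAi genotypes for input, and only from the larvae with both constructs for IP. In the 204 lower peaks with 1 interval, the median peak held 3, 3 and 2 input reads in the control libraries, 9, 13 and 10 in those labelled NAT10 RNAi, and 6, 8 and 10 with both constructs. The control libraries were below all 6 others, while the RNAi genotypes overlapped. Median IP reads were 30, 25 and 26 in control, 23, 28 and 29 in the larvae labelled NAT10 RNAi and 21.5, 24.5 and 20.5 with both constructs, with control overlapping the former and not the latter. The summed input reads of these peaks were 1041, 974 and 844 in control, 2698, 3672 and 2914 in the larvae labelled NAT10 RNAi, and 1588, 2279 and 2708 with both constructs.

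**Figure D2:**
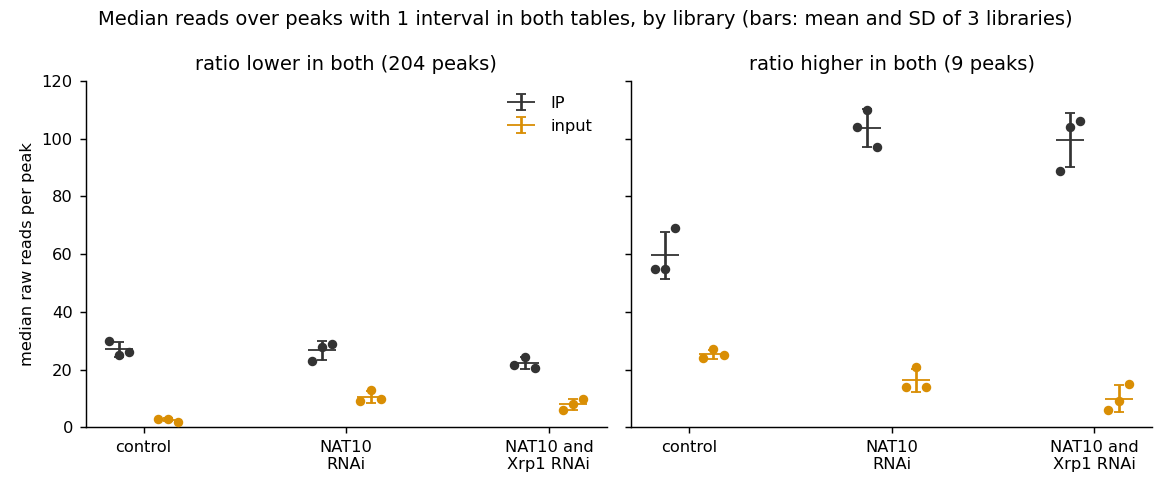
Median raw reads per peak in each library (points), for IP and input, over the 204 lower and the 9 higher peaks that have the same interval in both tables; dashes and bars give the mean and SD of 3 libraries. Input medians of the lower peaks are 3 or less in every control library and 6 or more in every other library.

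The difference in input reads lay in the peaks themselves more than in the rest of their transcripts. For 220 of the lower peaks the host gene had reads outside the peak, and both were scaled to the library's total of reads in genes. The median log2 input difference from control was 1.55 inside the peak and 0.28 in the rest of the gene for the larvae labelled NAT10 RNAi, and 1.20 inside the peak and 0.03 in the rest of the gene with both constructs. The medians inside the peak are over all 224 lower peaks, and those of the rest of the gene over the 220. The peak exceeded the rest of its own gene in 217 of 220 peaks and in 219 of 220. The higher peaks showed the mirror image, with a median of -1.05 inside the peak against 0.09 in the rest of the gene for the larvae labelled NAT10 RNAi, and the peak exceeded its gene in 1 of 28 and, with both constructs, in 0 of 28. Input reads of the peaks entered the ratio that chose them, so these counts describe how the selected peaks differ and test nothing.

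**Figure D3:**
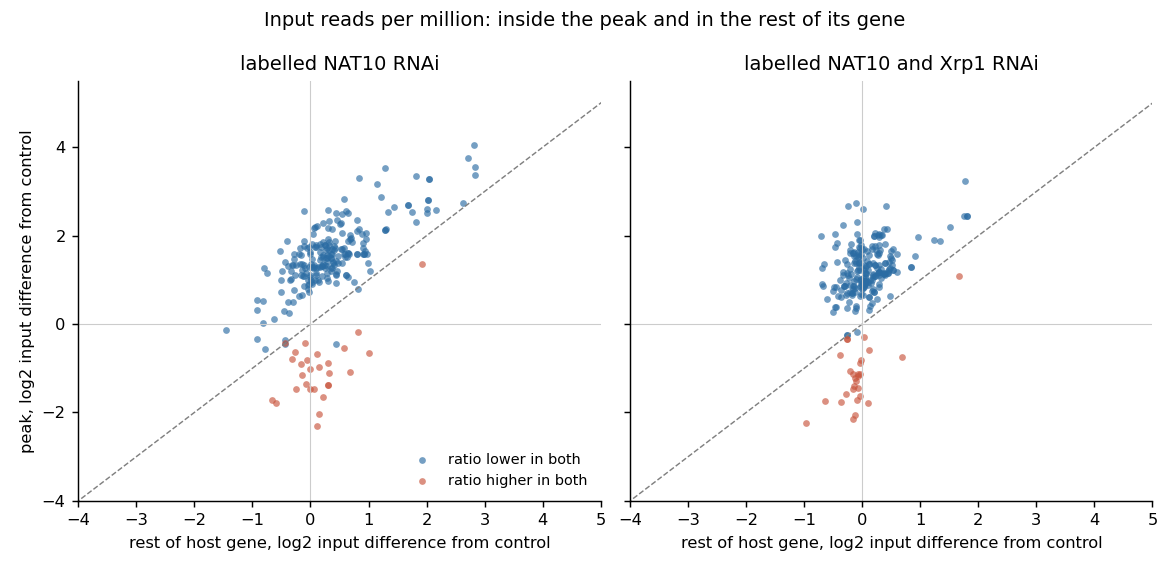
Log2 difference from control in input reads, scaled to reads in genes, in the rest of the host gene (x axis) and inside the peak (y axis), for larvae labelled NAT10 RNAi (left) and with both constructs (right); the dashed line marks equal differences. Blue points (lower ratio) lie above the line and red points (higher ratio) below it, with 3 blue points and 1 red point on the other side in the left panel.

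A small set of lower peaks differed from control mainly in IP. IP moved further than input in both RNAi genotypes in 10 of the 224 lower peaks, in 9 host genes: Bacc, CG13594, CG6928, comm, Atx2, CG4860, CG8483, CG5321 and cac. This set was drawn up after the values were seen. The largest reads among them were those of Bacc, a gene found in work on ethanol responses of the fly, whose peak lies in the 3' UTR (BDGP6 2L:2757048-2757258, plus strand). Its IP reads were 754, 589 and 717 in control, 183, 212 and 179 in the larvae labelled NAT10 RNAi, and 209, 127 and 154 with both constructs. Its input reads were 58, 89 and 88 in control, 58, 89 and 52 in the larvae labelled NAT10 RNAi, and 64, 61 and 68 with both constructs. The IP reads of control lay above all others without overlap, while input overlapped between all genotypes. The log2 ratio was 3.13 ± 0.49 in control (SD, n = 3), 1.55 ± 0.27 in the larvae labelled NAT10 RNAi and 1.30 ± 0.34 with both constructs. A second listed peak inside the same stretch is not a separate observation.

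The calcium channel gene cac, which encodes the pore-forming subunit of the presynaptic channel, belongs to the same set. Its 3' UTR peak (X:11932567-11932688, minus strand) held 60, 53 and 27 IP reads in control, 7, 5 and 15 in the larvae labelled NAT10 RNAi, and 4, 5 and 6 with both constructs. Input stayed between 3 and 5 reads in all 9 libraries. The control IP values lay above the others without overlap. The gene as a whole was no lower in the larvae labelled NAT10 RNAi, at 6.09, 5.70 and 6.46 FPKM, than in control, at 4.42, 4.47 and 4.54.

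The peak in comm, commissureless, which sorts the axon guidance receptor Robo away from the growth cone, lies in the coding sequence (3L:15722579-15723025, minus strand). It held 93, 76 and 64 IP reads in control, 31, 36 and 19 in the larvae labelled NAT10 RNAi and 45, 45 and 34 with both constructs, with 4 to 15 input reads. The peak in CG8483 (3R:13210100-13210935, minus strand) spans mostly sequence outside the exons of its transcript, and held 60, 59 and 65 IP reads in control, 9, 30 and 23 in the larvae labelled NAT10 RNAi, and 20, 50 and 47 with both constructs. Its host gene stood in the same order, at 37.5, 20.1 and 34.9 FPKM on average. The CG13594 peak had a mean of 50 IP reads in control, 14.7 in the larvae labelled NAT10 RNAi and 23 with both constructs, while the gene stood at 4.23, 1.60 and 4.59 FPKM. In Atx2, the fly ataxin-2 gene of a cytoplasmic RNA-binding protein, the mean IP was 49, 21.3 and 25 reads while the gene stood at 84.3, 65.6 and 78.5 FPKM.

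**Figure D4:**
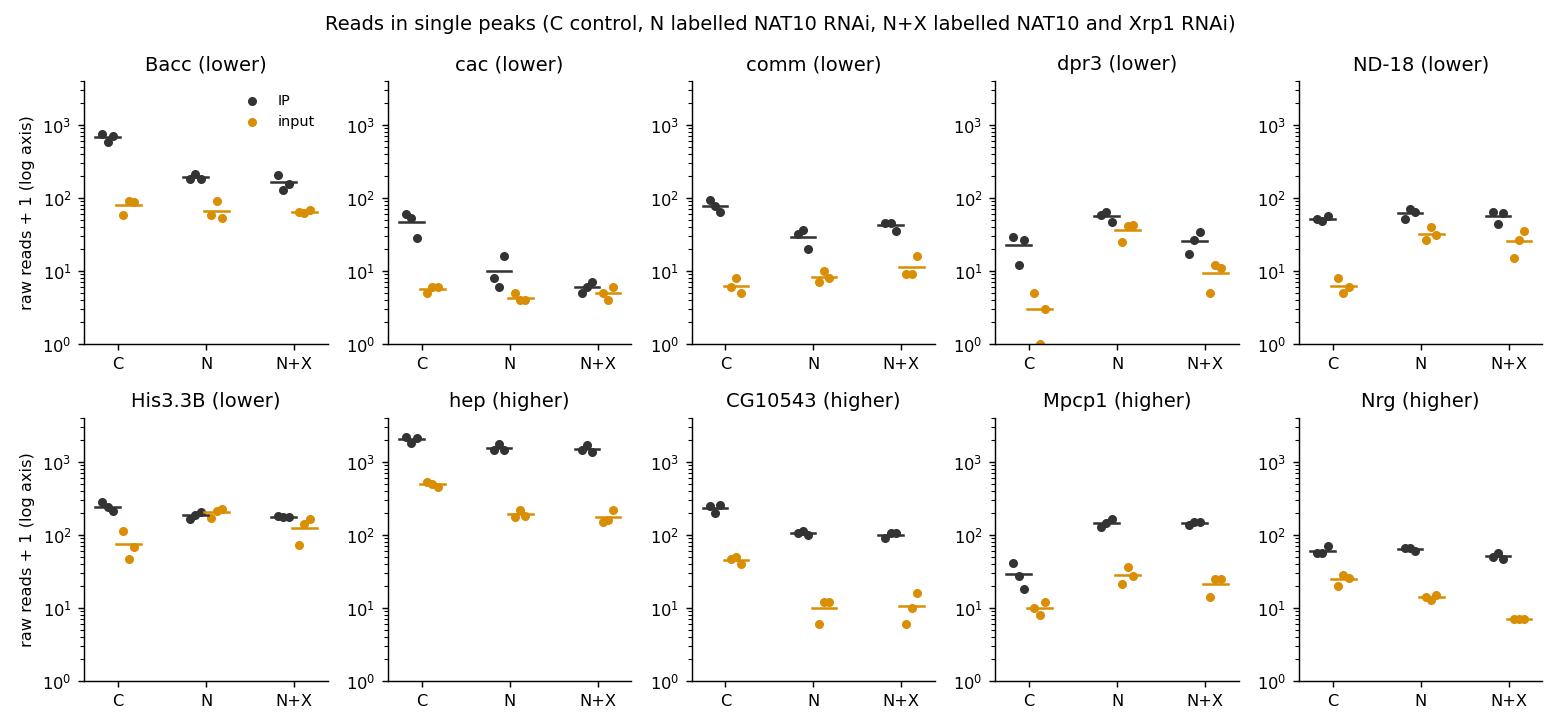
Raw IP (dark) and input (orange) reads plus 1, on a log axis, in each replicate of 10 single peaks; lines mark the group means. In Bacc and cac the IP points drop below control and input stays level, in dpr3 and ND-18 the input points climb, and in hep and CG10543 input is further below control than IP is.

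Among peaks with at least 50 IP reads and no overlap with control in either table, the largest differences below control were those of dpr3, ND-18, comm, Bacc and CG8483. Their order depends on the read added: with 5 reads added in place of 1, the log2 difference of dpr3 went from -2.45 to -1.31 in the larvae labelled NAT10 RNAi and from -1.58 to -0.73 with both constructs, nearer to 0 than those of Bacc, comm, ND-18 and CG8483. The peak in dpr3, a member of the dpr family of immunoglobulin proteins of synaptic partner choice, differed mainly in input. It held 4, 0 and 2 input reads in control, 24, 41 and 42 in the larvae labelled NAT10 RNAi and 4, 11 and 10 with both constructs. Its IP reads were 28, 11 and 26 in control, 57, 63 and 46 in the larvae labelled NAT10 RNAi and 16, 26 and 33 with both constructs, so IP was higher, not lower, in the larvae labelled NAT10 RNAi. The log2 ratio was 3.10 ± 0.53 (SD, n = 3) in control, 0.65 ± 0.54 in the larvae labelled NAT10 RNAi and 1.52 ± 0.31 with both constructs. The peak in ND-18, a subunit of mitochondrial complex I, held 51, 47 and 55 IP reads in control and 51, 70 and 64 in the larvae labelled NAT10 RNAi, which overlap. Its input reads were 7, 4 and 5 in control, 26, 39 and 30 in the larvae labelled NAT10 RNAi, and 14, 26 and 35 with both constructs, with control below all others.

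Lower peaks fell in many functional classes, and several hosts encode partners in 1 complex. These groups were put together after the hosts were known, so they are a description. Alk is the receptor tyrosine kinase whose ligand is encoded by jeb, and its peak was lower while that of jeb was higher. The Alk peak, in coding sequence, held 26, 28 and 23 IP reads in control, 25, 24 and 23 in the larvae labelled NAT10 RNAi, and 22, 35 and 23 with both constructs. Its input reads were 0, 1 and 2 in control, 4, 11 and 4 in the larvae labelled NAT10 RNAi, and 0, 7 and 10 with both constructs, the last overlapping control. The jeb peak, in the 3' UTR, spans only 62 bp in the first table, where it held 15, 5 and 7 IP reads in control against 18, 14 and 13 in the larvae labelled NAT10 RNAi, and 5, 5 and 8 input reads against 3, 4 and 3. Its log2 ratio was 1.47 above control in the larvae labelled NAT10 RNAi and 1.38 above with both constructs, where the second table lists a wider interval with a mean of 68 IP reads. With 5 reads added these differences were 0.96 and 1.19.

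The genes skd and kto encode the paired subunits of the kinase module of Mediator, the coactivator of RNA polymerase. The log2 ratio of the skd peak differed from control by -1.50 in the larvae labelled NAT10 RNAi and by -0.62 with both constructs, where replicates overlapped control, and that of the kto peak by -1.51 and -1.55. Each held 2 to 6 input reads in control libraries. Dys and Dyb encode dystrophin and dystrobrevin, which link the muscle cytoskeleton to the membrane. The Dys peak held 8, 7 and 7 input reads in control, 18, 14 and 16 in the larvae labelled NAT10 RNAi and 15 in each library with both constructs, and its IP reads were 41, 35 and 45, then 27, 37 and 31, then 31, 38 and 27. The wider Dyb peak held 11, 9 and 10 input reads in control, 34, 40 and 39 in the larvae labelled NAT10 RNAi and 13, 26 and 45 with both constructs. Control input was below the other libraries in both peaks.

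Over all 252 peaks 88.9% were lower, and the counts of lower hosts in the groups below stand beside that share. The median log2 difference from control over all 224 lower peaks was -1.69 in the larvae labelled NAT10 RNAi and -1.47 with both constructs. Of 6 hosts with roles in cell polarity and adhesion, 5 were lower, among them baz and aPKC, which act together at the apical side of epithelia, and pins, which orients the spindle. The pins peak held 10, 9 and 7 input reads in control, 22, 31 and 16 in the larvae labelled NAT10 RNAi and 9, 12 and 23 with both constructs, the last overlapping control. Of 14 hosts in transcription and chromatin, all were lower, with a median log2 difference from control of -1.52 in the larvae labelled NAT10 RNAi and -1.21 with both constructs. They include the corepressor gro, the zinc-finger gene zfh1, the remodeller subunit osa and His3.3B, a histone H3.3 gene. The His3.3B peak, in its 3' UTR, had many reads, with 110, 45 and 66 input reads in control, 168, 210 and 226 in the larvae labelled NAT10 RNAi and 71, 139 and 161 with both constructs. Its IP reads were 283, 236 and 208 in control, 165, 187 and 205 in the larvae labelled NAT10 RNAi, and 178, 176 and 176 with both constructs, all below control.

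All 11 hosts in RNA processing and translation were lower, with a median log2 difference from control of -1.56 in the larvae labelled NAT10 RNAi and -1.35 with both constructs. They include vir, a subunit of the m6A methyltransferase complex, Rnmt, the cap methyltransferase, the exosome subunits Rrp42 and Mtr3, and yps, a cold-shock domain protein. The Rnmt peak held 56, 54 and 64 IP reads in control, 26, 44 and 38 in the larvae labelled NAT10 RNAi and 50, 59 and 45 with both constructs. Its input reads were 9, 8 and 6 in control, 8, 17 and 18 in the larvae labelled NAT10 RNAi and 14, 16 and 13 with both constructs. In the mitochondrial group 10 of 11 hosts were lower, including mtRNApol, the polymerase that transcribes mitochondrial DNA, and tam, the polymerase that replicates it. The mtRNApol peak held 4 input reads in each control library, 23, 16 and 21 in the larvae labelled NAT10 RNAi and 10, 20 and 13 with both constructs, while its IP reads overlapped between all genotypes. Rbcn-3A and Rbcn-3B, which regulate the vacuolar proton pump together, were also both lower, with control input of 1 to 7 reads. Of 20 hosts in neuron signalling and excitability, 16 were lower and 4 were higher. Since 88.9% of all 252 peaks were lower, nothing is read from the counts of these groups.

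The 28 higher peaks differed from control chiefly by less input. In the first table their median peak held 12.7 input reads in control and 8 in the larvae labelled NAT10 RNAi, with 35.7 and 40.3 IP reads. In the second table the medians were 12.7 input reads in control and 5.83 with both constructs, with 34.8 and 49.2 IP reads. Input was lower than in control in 27 of the 28 in each genotype, and IP was higher in 21 and 20 of them. Only 9 of the 28 share 1 interval between the tables.

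The higher peak with the most IP reads in control lay in the 3' UTR of hep, the kinase that activates JNK (X:13084330-13084570, minus strand). It held 525, 499 and 448 input reads in control, 172, 219 and 180 in the larvae labelled NAT10 RNAi, and 148, 158 and 218 with both constructs. Its IP reads were 2190, 1828 and 2144 in control, 1461, 1725 and 1430 in the larvae labelled NAT10 RNAi and 1448, 1679 and 1367 with both constructs. Control was above every other library for both IP and input, so the higher ratio stands beside fewer IP reads, not more. The log2 ratio was 2.06 ± 0.19 in control (SD, n = 3), 3.01 ± 0.06 in the larvae labelled NAT10 RNAi and 3.11 ± 0.41 with both constructs.

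Hsc70Cb, a chaperone of the heat shock family, and pen-2, a subunit of gamma-secretase, had the same form. The Hsc70Cb peak, in the 5' UTR, held 990, 1070 and 890 input reads in control, 326, 444 and 378 in the larvae labelled NAT10 RNAi and 314, 330 and 418 with both constructs, and its IP means were 1447, 1087 and 1094. The pen-2 peak held 253, 271 and 261 input reads in control, 58, 114 and 77 in the larvae labelled NAT10 RNAi and 66, 71 and 93 with both constructs, and its IP means were 548, 300.3 and 322. In both peaks control lay above the other libraries for IP and for input. The whole pen-2 gene also held less input in both RNAi genotypes, at 15.7, 16.8 and 17.7 FPKM in control, 5.55, 7.42 and 6.61 in the larvae labelled NAT10 RNAi and 6.11, 6.56 and 6.81 with both constructs. The peak reads are part of those values. In CG10543, IP was also lower than in control: its narrower peak held 243, 198 and 256 IP reads in control, 104, 110 and 97 in the larvae labelled NAT10 RNAi and 89, 104 and 106 with both constructs, with 46, 49 and 39 input reads, then 5, 11 and 11, then 5, 9 and 15.

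By the same rule of size, the higher peaks with the largest differences were that of CG10543 and those of CG9410, jeb, CG5084, Cad87A, a cadherin, and Nrg, the fly neuroglian, a cell adhesion molecule of axons. The jeb peak met the minimum of 50 IP reads through its wider interval in the second table. The Nrg peak, in the 3' UTR, held 55, 55 and 69 IP reads in control, 64, 65 and 59 in the larvae labelled NAT10 RNAi and 49, 55 and 45 with both constructs, each RNAi genotype overlapping control. Its input reads were 19, 27 and 25 in control, 13, 12 and 14 in the larvae labelled NAT10 RNAi, and 6 in each library with both constructs, which separates the 3 genotypes. Mpcp1, a carrier of phosphate into mitochondria, held the 1 higher peak whose input exceeded control, and its IP did too. Its 5' UTR peak held 40, 26 and 17 IP reads in control, 125, 146 and 161 in the larvae labelled NAT10 RNAi and 137, 149 and 147 with both constructs, with 9, 7 and 11 input reads, then 20, 35 and 26, then 13, 24 and 24. The gene stood at 0.951, 0.763 and 1.12 FPKM in control, 2.97, 3.57 and 3.40 in the larvae labelled NAT10 RNAi and 2.45, 2.92 and 2.90 with both constructs.

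In 27 host genes 2 or more listed peaks were found, but in all except 6 of these the peaks overlapped and count as 1 stretch. Separate stretches were present in 6 genes, all with lower ratios: Men-b, Dhc36C, CG6928, CG14120, Itp-r83A and uif. Men-b is a malic enzyme, Dhc36C a dynein heavy chain and Itp-r83A the receptor for inositol trisphosphate. The peaks of Dhc36C lie at 2L:17512442-17512563 and 2L:17524974-17525215. The former held 5, 5 and 4 input reads in control and 15, 27 and 11 in the larvae labelled NAT10 RNAi, and the latter 5, 8 and 2 and 15, 26 and 14. CG14120 differed from the rest in that IP was higher as well: at 3L:12885456-12885576 it held 27, 13 and 17 IP reads in control, 97, 109 and 125 in the larvae labelled NAT10 RNAi and 97, 74 and 65 with both constructs. Its input there was 1, 2 and 4 reads, then 48, 80 and 49, then 25, 35 and 27.

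The classes lay in different places of the transcript, a property that the rule did not use. The centre was in the 3' UTR for 60.7% of the 28 higher peaks and for 6.70% of the 224 lower peaks, beside 15.8% of the 31666 peaks called in control, 19.1% of the 31192 called in the larvae labelled NAT10 RNAi and 18.4% of the 30887 called with both constructs. It was in coding sequence for 75.4% of the lower peaks and 17.9% of the higher peaks, beside 64.5% of the control peaks. With place taken from the transcript to which the authors assigned the peak, 179 of the lower peaks lay mostly in coding sequence, 15 in the 3' UTR and 11 in the 5' UTR, and 17 of the higher peaks lay in the 3' UTR, 7 in coding sequence and 4 in the 5' UTR. The other peaks of the first table split in the same sense, with 3' UTR shares of 33.6% for those with a higher ratio and 5.43% for those with a lower ratio. Along the transcript, the centre fell in the first, middle and last part of 3 equal parts for 79, 74 and 48 of the 201 lower peaks that could be placed, and for 6, 2 and 18 of 26 higher peaks. Overlapping peaks and peaks of 1 gene are not independent, and no test was made.

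**Figure D5:**
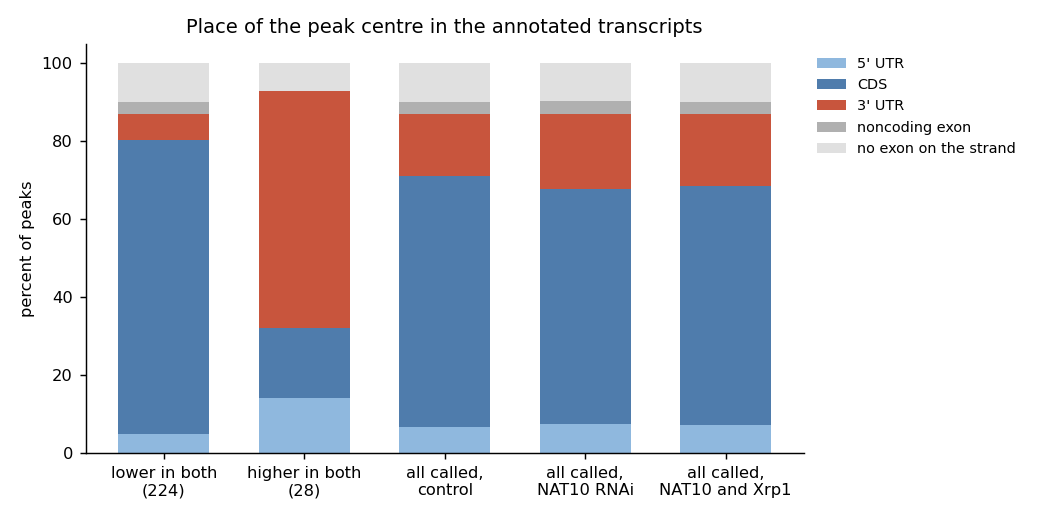
Percent of peaks whose centre lies in each part of an annotated transcript on the same strand, for the 224 lower and 28 higher peaks and for all peaks called in each genotype. The 3' UTR share is 60.7% in the higher peaks and 6.70% in the lower peaks, with 15.8% to 19.1% in the called lists.

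The peaks called in each genotype followed the ratios that chose them. Of the 224 lower peaks, 223 overlapped a peak called in control, 72 one called in the larvae labelled NAT10 RNAi and 65 one called with both constructs. For 132 of them the only call was in control, and 44 were called in all 3 genotypes. Of the 28 higher peaks, 7 were called in control, and 27 in each of the RNAi genotypes. All peaks lay in protein-coding genes except 7 in noncoding RNAs, which were all lower. None overlapped an annotated transposable element.

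Of all tested genes, 1.82% were hosts, so a list of this size would hold few hosts at that share. There was no host among 91 tested genes for cytosolic ribosomal proteins, 72 for mitochondrial ribosomal proteins, 53 for translation factors, 48 for the proteasome or 59 for cytochrome P450. The list of oxidative phosphorylation genes gave 2 hosts of 89, ND-18 and ATPsyndelta, and the list of sarcomere genes 2 of 22, sls and Strn-Mlck, all lower. The histone and chromatin list gave 3 of 18, His3.3B, Su(var)2-10 and osa, all lower. The chaperone list gave 1 of 41, Hsc70Cb, which was higher, the neuron list gave 2 of 25, Dscam4 and Nrg, and the list of cuticle proteins gave 1 of 71, Lcp65Aa. In the host genes of the lower peaks the median level was 4.35 FPKM in control, below the 7.04 FPKM of all tested genes, and in those of the higher peaks it was 8.72 FPKM. The control input libraries behind these levels also entered the ratios that chose the peaks, so nothing is read from the order.

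Strand was examined because 17 of the 252 peaks overlap an exon of another gene on the opposite strand. In the tables, 2 and 4 pairs of peaks on opposite strands share at least 90% of their length. The summed reads of their members stood in a ratio of 0.732 to 0.902 in the first table and of 0.886 to 1.03 in the second. The strand setting of the counting is not given in the sources used here, so reads from the opposite strand cannot be told apart. Pairs such as CG8119 and CR43299, or knk and CR46038, may therefore hold the same reads, and peaks in Tspo, skd, Cht9, Med and ATPsyndelta may hold reads of the opposite gene.

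The contrast between the RNAi genotypes was not itself used to choose the peaks. The reads of both genotypes did enter the contrasts with control that chose them, so the values below are not independent of that choice. Over the 204 lower peaks with 1 interval, the log2 ratio was higher with both constructs than in the larvae labelled NAT10 RNAi in 137, and the median difference was 0.17. That difference was within the spread between libraries, whose medians were 1.29, 1.10 and 1.43 in the larvae labelled NAT10 RNAi and 1.77, 1.43 and 1 with both constructs. Without replicate 1 of the larvae with both constructs the median difference over all 224 lower peaks went from 0.17 to -0.02, so its direction rests on that library. Relative to control of the same table it was 0.17. Division of each ratio by the median of its library over the whole table gave -0.30, but the tables hold different peaks, and the same control libraries have medians of 2.58, 2.29 and 2.50 in the first and 2.17, 1.96 and 2.20 in the second. Replicates of the RNAi genotypes did not overlap in 16 of all 252 peaks (6.35%), 14 higher with both constructs (5.56%) and 2 lower (0.794%). Among the 213 peaks with 1 interval they did not overlap in 12 (5.63%), of which 10 were higher (4.69%), including those in His3.3B, mnb, Rnmt and Nrg, and 2 were lower (0.939%), in Hlc and CG8301. With 3 libraries against 3, an exact two-sided permutation test of a single peak cannot go below 0.10, and none is given. That 0.10 is also the share of peaks without overlap if the libraries of the 2 genotypes were exchangeable. The shares of 6.35% and 5.63% lie below it, so nothing is read from these counts or from the peaks named.

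The gene mnb encodes the minibrain kinase, and its peak lies in coding sequence (X:17869144-17869354, minus strand). It is one of the peaks named above for lack of overlap between the RNAi genotypes. The values below are a description, from which nothing is read. The peak held 45, 40 and 49 IP reads in control, 17, 17 and 10 in the larvae labelled NAT10 RNAi and 33, 33 and 32 with both constructs, so the 3 genotypes did not overlap in IP. Its input reads were 6, 10 and 3, then 9, 11 and 6, then 11, 10 and 14, which overlap. The log2 ratio was 2.75 ± 0.87 (SD, n = 3), 0.70 ± 0.14 and 1.42 ± 0.25 in the same order. The host gene stood in the same order as the IP reads, at 38.6, 39.8 and 40.9 FPKM in control, 21.5, 21.0 and 20.5 in the larvae labelled NAT10 RNAi and 29.8, 27.9 and 29.4 with both constructs.

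The level of the host genes in input was tested between the RNAi genotypes with limma over all 11557 genes that passed the filter. The same input libraries entered the ratios that chose the peaks, so the choice of hosts is not independent of these levels. Of the 223 hosts, 219 were in the FPKM table and 210 passed. With both constructs, 27 of the 210 hosts were higher than in the larvae labelled NAT10 RNAi (12.9%, beside 15.2% of all tested genes) and 89 were lower (42.4%, beside 46.1%; limma, Benjamini-Hochberg adjusted p under 0.05). Both shares lie near those of all tested genes. The median over all tested genes was itself -0.16 on the log2(FPKM + 1) scale, beside -0.15 in the hosts of lower peaks and -0.13 in those of higher peaks. After libraries were rescaled by their median ratio, 54 of 209 hosts were higher and 57 were lower (25.8% and 27.3%, beside 27% and 28.9% of all tested genes). The share of higher calls among the called hosts thus went from 23.3% to 48.6%, beside 24.8% to 48.3% among all called genes. The genes named below as changed kept their call and direction after rescaling, except hep.

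Among the hosts furthest down with both constructs, chosen after their values were seen, were Cht9, a chitinase, Qsox2, a sulfhydryl oxidase, and Ku80, a subunit of the end-binding complex of DNA repair. Cht9 stood at 0.945, 1.57 and 1.05 FPKM in control, 10.8, 10.2 and 9.82 in the larvae labelled NAT10 RNAi and 1.61, 2.29 and 2.05 with both constructs. It fell by 1.92 ± 0.12 (log2, SE; limma adjusted p = 3.11e-07) between the RNAi genotypes and by 1.78 after rescaling. Its peak held 54, 46 and 46 IP reads in control, 298, 405 and 329 in the larvae labelled NAT10 RNAi and 55, 78 and 54 with both constructs, and its input reads were 5, 8 and 3, then 91, 87 and 83, then 5, 14 and 25. Ku80 stood at 4.52, 4.74 and 4.51 FPKM in control, 9.14, 9.43 and 9.23 in the larvae labelled NAT10 RNAi and 3.44, 4.31 and 4.07 with both constructs, a fall of 1.06 ± 0.07 between the RNAi genotypes (log2, SE; limma adjusted p = 5.40e-07). Qsox2 fell by 1.15 ± 0.10 (limma adjusted p = 5.12e-06). CG14120 fell by 0.97 ± 0.07 (limma adjusted p = 6.97e-07), from 20.8, 20.6 and 20.0 FPKM to 8.94, 10.2 and 10.8, with 2.83, 2.99 and 2.69 in control.

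Other hosts were higher. CG13594 rose by 1.10 ± 0.09 (log2, SE; limma adjusted p = 1.88e-06) with both constructs over the larvae labelled NAT10 RNAi, CG8483 by 0.77 ± 0.05 (limma adjusted p = 2.93e-07) and mnb by 0.45 ± 0.04 (limma adjusted p = 3.71e-06), each also after rescaling. Atx2 rose by 0.26 ± 0.04 (limma adjusted p = 0.000271) and pins by 0.32 ± 0.05 (limma adjusted p = 0.000498). Among named hosts with many peak reads, Bacc differed by 0.18 ± 0.08 (limma adjusted p = 0.0825) and passed after rescaling at 0.36 (limma adjusted p = 0.0093). The hep gene fell by 0.19 ± 0.04 (limma adjusted p = 0.00159) but stood at -0.02 after rescaling (limma adjusted p = 0.628). For dpr3 the fall was 0.72 ± 0.08 (limma adjusted p = 1.75e-05), and for tam and mtRNApol it was 0.55 ± 0.07 and 0.53 ± 0.08 (limma adjusted p = 8.20e-05 and 0.000138). Rbcn-3A and Rbcn-3B rose by 0.19 and 0.20 (limma adjusted p = 0.00329 and 0.00216).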

How the data were processed

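ac4C immunoprecipitation sequencing was read from deposited tables of 3 genotypes, each with 3 input and 3 IP libraries. Per the submitters' processing notes, fastp 0.23.1, STAR 2.7.6a, Subread 1.5.1 with featureCounts, bedtools 2.30.0, deepTools 3.5.1 and HOMER 4.9.1 were used with BDGP6. For the peak caller, the strand setting and the use of the 12-base molecular identifier, the status is: not given in the sources used here. The authors deposited raw read counts per differential peak and library, whose authors' change and p columns were not used. Levels of input RNA are FPKM per gene as deposited by the authors, and values recovered as whole reads (within 0.1) made up 100% of each library. The fold enrichment of each called peak is the authors' ratio of IP to input, 1 list per genotype, and it was used to see which peaks were called. The 12 per-library columns that match no label were not used.

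Members were the first-table peaks with at least 1 bp of overlap in the second. The members and gene lists were chosen with earlier results of these data known. The log2 ratio was taken per replicate after 1 read was added to IP and input. Reads with both constructs come from the interval of the second table, so reads are compared across all genotypes in peaks with 1 interval. Host genes were tested with limma 3.58.1 (R 4.3.3) on log2(FPKM + 1), over genes with at least 1 FPKM in 3 of 9 input libraries, with all 3 genotypes in the fit and Benjamini-Hochberg adjustment over all genes. The step was tested on simulated data. Alternatives were edgeR 4.0.16 and DESeq2 1.42.0 on recovered reads, other pseudocounts and filters, rescaling by median ratio, a replicate block and leaving out each replicate. Tables were handled in Python 3.11.15.

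Peaks named for size were the 6 per class with the largest mean difference from control, with a mean of at least 50 IP reads in the highest genotype and no overlap with control in either table. Hosts of 2 or more peaks were named by rule as well, and other genes were chosen after their values were seen. Of the genes in the FPKM table, 12242 matched the annotation used for place in the transcript, and 90.5% of these had the same span. No genome sequence was used here, so the base composition and motifs of the peaks were not examined. Nothing in the labels says that replicates came from separate crosses, so p-values measure the spread between these samples, which may be technical.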

Additional observations from a re-analysis of the deposited data

How the results depend on the processing

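The number of peaks fell from 252 to 28 when a mean of at least 10 input reads was asked in every genotype, with 22 lower and 6 higher, because few peaks have that many. Under the other settings 203 to 224 peaks were lower and 20 to 28 higher, and after division by the library median 222 were lower, 28 higher and 2 opposite. With 5 reads added, and without replicate 2 of the larvae with both constructs, 1 peak was opposite. The median difference in log2 ratio between the RNAi genotypes over the lower peaks was 0.17, was 0.17 relative to control of the same table, was reversed at -0.30 after that division, whose medians come from tables of different peaks, and was reversed at -0.022 without replicate 1 of the larvae with both constructs, the other replicates left out giving up to 0.41. The cause was not tested. With 5 reads added dpr3 no longer led the lower peaks named for size. Host genes called between the RNAi genotypes numbered 116, and 97 to 117 without single replicates (22 to 27 higher, 73 to 91 lower). After rescaling 54 hosts were higher and 57 lower, with edgeR 63 and 63, and with DESeq2 56 and 59, against 27 and 89. Of the 116 main calls, 84 were also called after rescaling, 90 with edgeR and 86 with DESeq2. Among all called genes, 24.8% were higher in the main fit, 48.3% after rescaling, 48.4% with edgeR and 51.8% with DESeq2. The rescaled fit changed the scaling and, since the FPKM filter was applied after it, slightly the genes tested (209 hosts in place of 210). The edgeR and DESeq2 fits also changed the values and the model, and the cause was not tested. The Cad87A host gene stood at -0.03 (not called) and was reversed at 0.15 with edgeR and 0.17 with DESeq2. Deviations of same-numbered input libraries from their genotype means correlated between -0.0683 and 0.0797, so the numbers were not taken as pairs. With the replicate block 115 host genes were called (26 higher and 89 lower). The settings chosen after seeing the data were 1 peak per merged stretch and only peaks with 1 interval, where the median difference was 0.17. Input depth limits single peaks, most of which hold under 10 control input reads.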
